A study of Mus musculus with 20 samples.

Results

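The genes described here make, break down, carry or sense retinoic acid, a signalling molecule derived from vitamin A. They are 9 of the 54446 gene IDs in the expression tables and were taken by symbol: Aldh1a2, Cyp26a1, Dhrs3, Stra6, Crabp1, Crabp2, Rara, Rarb and Rarg. Their expression was compared in 15 bulk RNA-sequencing libraries of mouse structures, 3 biological replicates in each of 5 groups. Every group was grown from the same line of embryonic stem cells (mESC, strain F1G4) that carried the reporters T::H2B-mCherry and Sox2::H2B-Venus. The cells were aggregated in NDiff227 medium and pulsed after 48 h with CHIR99021 at 3 µM, which inhibits GSK3 and so turns on the WNT pathway. The group 96h held precursors of trunk-like structures (TLS) collected at 96 h, with 10 structures pooled in each library. The other groups were collected at 120 h with 6 pooled structures per library. Gastruloid was grown by the Beccari protocol. TLSMG was grown in Matrigel, a basement membrane gel. TLSMGC was grown in Matrigel with CHIR, and TLSMGCL in Matrigel with CHIR and LDN, an inhibitor of BMP receptors. The doses and times of the later CHIR and of LDN are not given in the sources used here. Structures were picked for an asymmetric pole, so the libraries describe picked pools of a single line.

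Retinol enters cells through Stra6 and is oxidised to retinal, which Aldh1a2 oxidises further to retinoic acid. Crabp proteins bind retinoic acid in the cytoplasm, receptors of the Rar family bind it in the nucleus together with Rxr partners, and enzymes of the Cyp26 family break it down. In the vertebrate trunk, Aldh1a2 is known as the main synthesising enzyme of somites and anterior presomitic mesoderm, and Cyp26a1 as an enzyme of the tailbud. Cyp26a1 and Rarb are textbook targets that retinoic acid itself induces.

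Rar and Rxr pairs are known to bind direct repeats of a hexamer. RefSeq promoter windows on build GRCm38.p6, from 250 bases before to 50 bases after each start, were searched on both strands for pairs of hexamers spaced by 1, 2 or 5 bases. Each hexamer could be AGGTCA or AGTTCA, and equally GGGTCA or the form GGTTCA. Windows were at hand for 8 of the 9 genes, with Crabp2 the one without. A repeat with a spacer of 5 was found in 2 of the 8 genes, Rarb and Cyp26a1. Among all 27025 genes searched, 31 held such a repeat (0.115%), which is 32 of 32851 windows (0.0974%). None of the 17 windows of the 8 genes held a repeat with a spacer of 1 or 2, which 0.222% and 0.268% of all windows held. The 250 bases before the start are shown for these 2 genes because they hold the repeats, and capitals mark the hexamers. The Rarb window lies on the minus strand at chr14:16575477-16575726, at a RefSeq start inside the gene, and its repeat ran from 53 to 37 bases before that start. The Cyp26a1 window lies on the plus strand at chr19:37697558-37697807, with the repeat on the opposite strand from 32 to 16 bases before the start. A match of letters is a description and does not show that a receptor binds there. Rarb and Cyp26a1 are the textbook targets named above, so the share of all genes is no test of enrichment.
Rarb: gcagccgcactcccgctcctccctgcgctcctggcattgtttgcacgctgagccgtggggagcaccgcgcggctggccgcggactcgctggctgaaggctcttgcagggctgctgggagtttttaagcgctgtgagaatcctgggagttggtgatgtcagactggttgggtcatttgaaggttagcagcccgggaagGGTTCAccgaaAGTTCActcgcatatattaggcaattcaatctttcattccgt
Cyp26a1: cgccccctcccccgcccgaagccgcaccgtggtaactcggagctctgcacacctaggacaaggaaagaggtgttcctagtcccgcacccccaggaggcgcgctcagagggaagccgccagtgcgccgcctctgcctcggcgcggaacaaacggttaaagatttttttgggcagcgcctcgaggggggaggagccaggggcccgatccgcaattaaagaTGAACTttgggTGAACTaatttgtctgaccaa

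Expression is given in TPM, the abundance of a gene's transcripts corrected for length and scaled to the same total in every library. Differences are on the log2(TPM + 1) scale with their standard errors (SE), tested with limma over all 14290 genes with a mean of at least 1 TPM, and called at a Benjamini-Hochberg adjusted p under 0.05. All 9 genes passed that filter. Between 13688 and 14494 genes per library reached 1 TPM, and relative depth differed by up to 2.33 times between libraries. The label mESC names the starting cells. Pou5f1, a pluripotency gene, was at 85.0 to 134 TPM in 96h and 46.1 to 68.6 in Gastruloid. It was between 6.98 and 28.2 TPM in the Matrigel groups. Of 6 pluripotency markers, 2 were lower and 0 higher in Gastruloid than in 96h (20.5% and 20.8% of all genes). Their median log2 difference was 0.15, and Nanog averaged 14.5 TPM in 96h and 15.4 TPM in Gastruloid.

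Against 96h, Aldh1a2 had the largest fall of the 9 genes in Gastruloid, TLSMG and TLSMGC, and Cyp26a1 in TLSMGCL. Stra6 and Crabp1 had the largest rises from TLSMG to TLSMGC. Crabp2 moved opposite to Crabp1 in Gastruloid and TLSMG, where it was higher than in 96h while Crabp1 was lower. Every library of TLSMGC and TLSMGCL held less Rarb than any library of the other groups. With LDN, Aldh1a2 rose further. In structures sequenced in bulk, fewer cells that express a gene and less RNA per cell cannot be told apart.

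**Figure D1:**
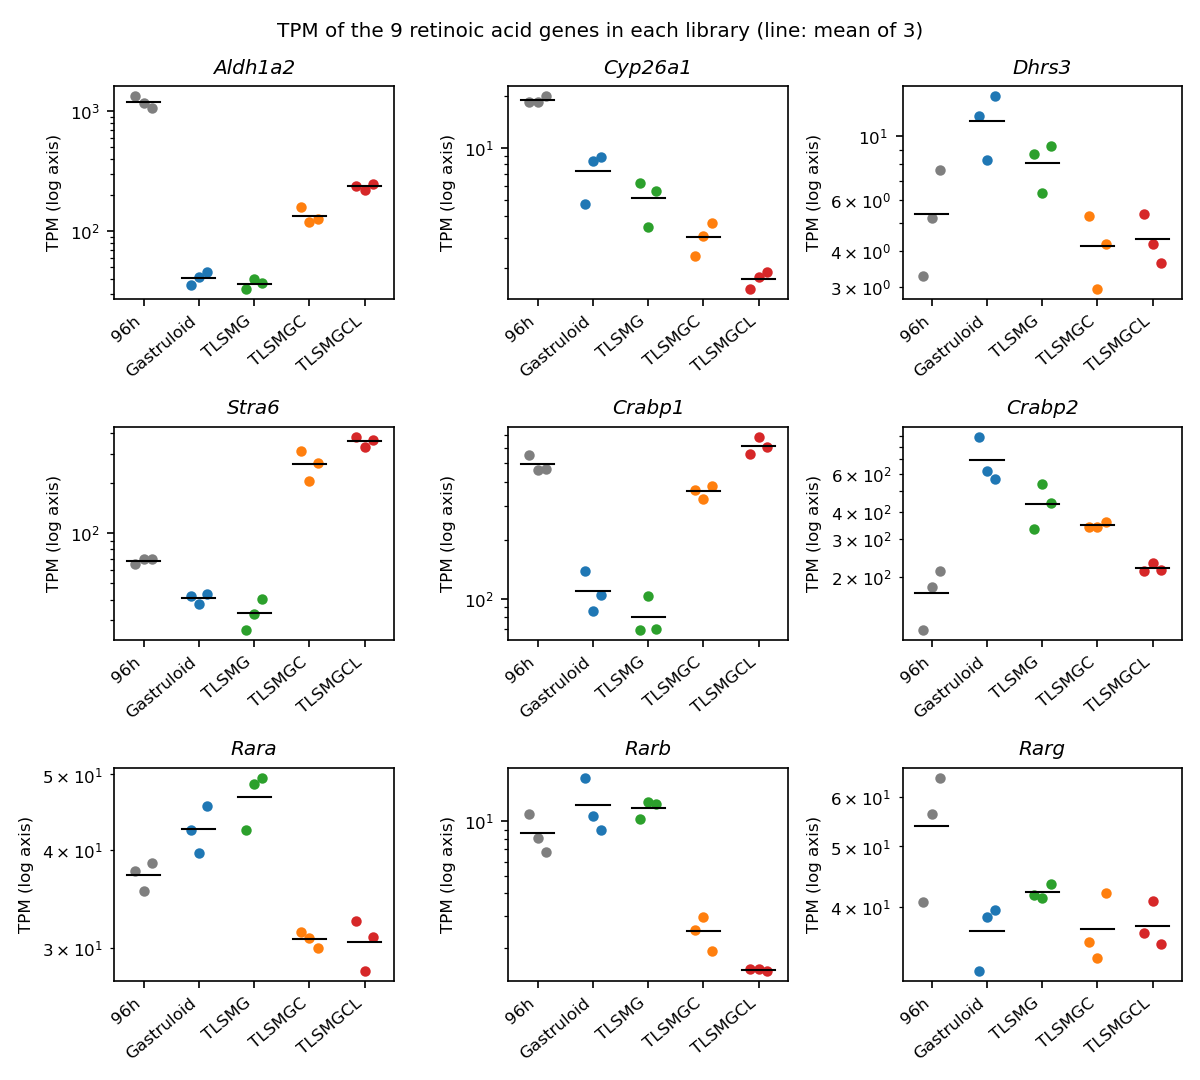
TPM of each of the 9 genes (vertical log axis, its own range per gene) in the 15 libraries, with 5 groups on the horizontal axis, points for libraries and a line for the mean of 3. Aldh1a2 is at 1056 TPM or more in the 3 libraries of 96h and at 45.5 TPM or less in Gastruloid and TLSMG, and Rarb is at 2.96 TPM or less in TLSMGC and TLSMGCL.

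Counts of called genes have to be read against how many genes changed at all. From 96h to Gastruloid, 7 of the 9 genes were called, 2 higher and 5 lower, where 41.2% of all tested genes were called (20.8% higher, 20.5% lower). From 96h to TLSMG, 6 were called, 2 higher and 4 lower, with 46% of all genes called. From 96h to TLSMGC, 8 were called, 2 higher and 6 lower, with 40.7% of all genes called (20.6% higher, 20.1% lower). Without 96h replicate 3, 5 of the 9 were called. From 96h to TLSMGCL, 6 were called, 1 higher and 5 lower, with 39.5% of all genes called (17.4% higher, 22.1% lower). The comparisons with 96h share its libraries, and time and pool size, which differ together there, cannot be told apart. For TLSMG the Matrigel came on top of these, for TLSMGC also the later CHIR, and for TLSMGCL also LDN. The step from Gastruloid to TLSMG called 1 of 9, Crabp2, lower (39.3% of all genes), and none without TLSMG replicate 1. From TLSMG to TLSMGC, 7 were called, 3 higher and 4 lower (40.9% of all genes), and from TLSMG to TLSMGCL 8, 3 higher and 5 lower (44.9%). From TLSMGC to TLSMGCL, 2 of 9 were called, both higher, where 1.18% of all genes were called. Leaving out any library of those 2 groups left 1, Aldh1a2. The median log2 difference over the 9 genes was -0.53 for Gastruloid, -0.32 for TLSMG, -0.46 for TLSMGC and -0.28 for TLSMGCL against 96h. The medians over all genes were 0.00, 0.14, 0.02 and -0.02.

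**Figure D2:**
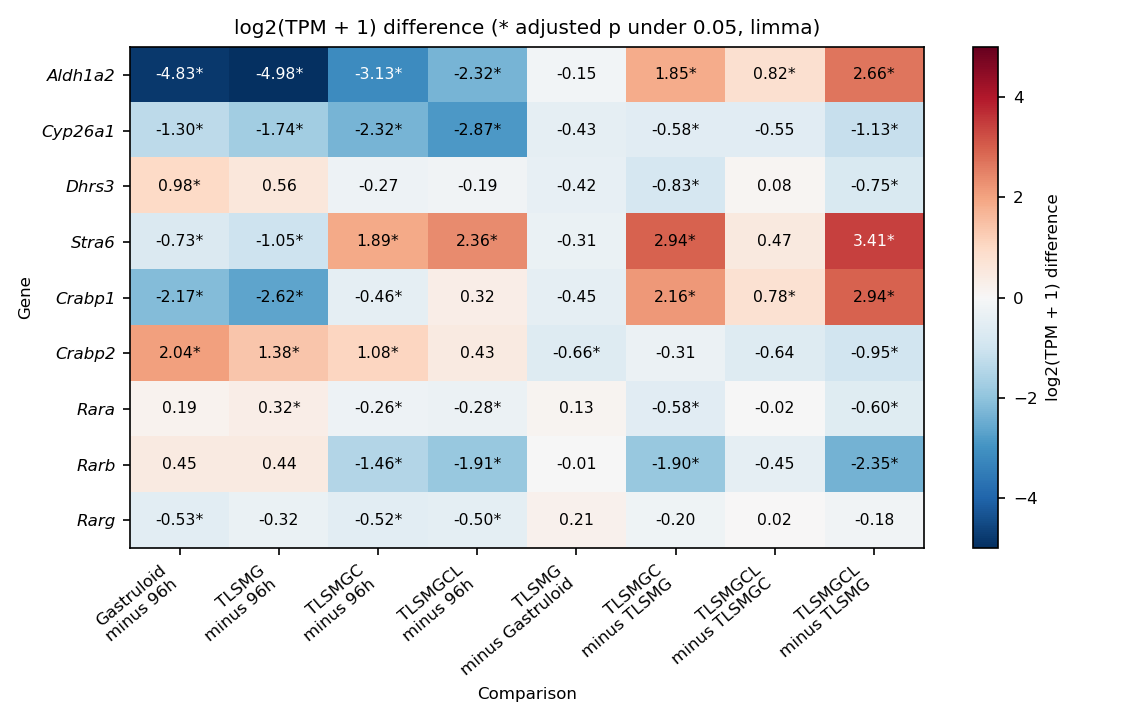
Log2(TPM + 1) difference (colour and printed value) of the 9 genes (rows) in 8 comparisons (columns, group named above minus the group below), with a star where limma's adjusted p is under 0.05. The 96h comparisons run from -4.98 for Aldh1a2 in TLSMG to 2.36 for Stra6 in TLSMGCL, and the LDN column holds 2 stars.

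TLSMG stood apart in scaling. Centring libraries on their typical gene (median-of-ratios scaling) lowered differences of TLSMG against 96h by 0.16 and against Gastruloid by 0.15 on the log2 scale, and raised those of TLSMGC and TLSMGCL against TLSMG by 0.15 and 0.18. The split of all genes moved with it. Against 96h, TLSMG had 33.5% of genes higher and 12.5% lower in TPM, and 22.4% and 23.1% after centring. Against Gastruloid the split was 31.5% and 7.87%, and 19.3% and 18.2% after centring. TLSMGC against TLSMG had 10.4% higher and 30.5% lower, and 18.3% and 18.8% after centring. TLSMGCL against TLSMG had 9.31% and 35.6%, and 19.1% and 20% after centring. TLSMGCL against TLSMGC went from 0.406% and 0.777% to 0.721% and 0.693%. With FPKM, Gastruloid against 96h had 3931 genes higher and 2371 lower in place of 2969 and 2925. Of the 9 genes, 5 were lower in TLSMG than in Gastruloid after centring, and the centred values are given below where a call changed.

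Aldh1a2 (chromosome 9, 71215789 to 71296243) makes retinoic acid from retinal. It measured 1346, 1166 and 1056 TPM in 96h, which placed its mean at rank 121 of 54446 gene IDs. Gastruloid had 35.5, 41.7 and 45.5 TPM and TLSMG 33.0, 40.0 and 36.8 TPM. TLSMGC had 158, 119 and 128 TPM and TLSMGCL 239, 222 and 249 TPM. The order was 96h, TLSMGCL, TLSMGC, then Gastruloid and TLSMG, and only the last 2 overlapped. Mean Aldh1a2 was 29.1-fold lower in Gastruloid than in 96h (log2 -4.83, SE 0.12, limma adjusted p = 8.66e-12) and 32.5-fold lower in TLSMG (log2 -4.98, adjusted p = 1e-11). With CHIR it was 3.69-fold higher than in TLSMG (log2 1.85, SE 0.12, adjusted p = 1.15e-07), and 8.81-fold below 96h (adjusted p = 5.37e-10). Adding LDN raised it 1.75-fold over TLSMGC (log2 0.82, SE 0.12, adjusted p = 0.00556). In TLSMG against Gastruloid the difference was -0.15 with an adjusted p of 0.335, and -0.32 with 0.0356 after centring.

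Rdh10 makes retinal from retinol, the step before Aldh1a2, and its levels were distributed differently. Rdh10 measured 11.2, 7.38 and 7.11 TPM in 96h and 6.51, 7.14 and 6.35 TPM in Gastruloid. TLSMG had 16.6 to 21.0 TPM, TLSMGC 64.7, 59.3 and 51.5 TPM, and TLSMGCL 53.5, 41.4 and 55.9 TPM. Rdh10 was thus low in 96h, where Aldh1a2 was highest, and high in both groups with CHIR. It was 3.21-fold higher in TLSMGC than in TLSMG (log2 1.63, SE 0.16, limma adjusted p = 3.76e-06) and 2.74-fold higher in TLSMG than in Gastruloid (log2 1.32, adjusted p = 0.000116). From TLSMGC to TLSMGCL it differed by -0.22 (adjusted p = 0.615). Aldh1a1 and Aldh1a3, which catalyse the same step as Aldh1a2, stayed under 0.2 and 0.75 TPM in all 15 libraries and were not tested.

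Cyp26a1 (chromosome 19, 37697808 to 37701528) oxidises retinoic acid for removal. It measured 18.4, 18.3 and 20.0 TPM in 96h. Gastruloid had 4.72, 8.33 and 8.85 TPM and TLSMG 6.21, 3.48 and 5.61 TPM. TLSMGC had 2.36, 3.09 and 3.63 TPM and TLSMGCL 1.51, 1.78 and 1.90 TPM. The 96h libraries were above all others, TLSMGCL was below all others, and the groups between overlapped with their neighbours. Cyp26a1 was 2.59-fold lower in Gastruloid than in 96h (log2 -1.30, SE 0.21, limma adjusted p = 0.000237) and 10.9-fold lower in TLSMGCL (log2 -2.87, adjusted p = 1.68e-07). TLSMG and TLSMGC were 3.71-fold and 6.25-fold lower than 96h, with adjusted p of 1.72e-05 and 1.44e-06. Against TLSMG it was lower in TLSMGCL (log2 -1.13, adjusted p = 0.000712). It was also called lower in TLSMGC than in TLSMG (log2 -0.58, adjusted p = 0.039), but not after centring (-0.45, adjusted p = 0.113) or without any of 4 of the 6 libraries, TLSMG replicates 1 and 3 and TLSMGC replicates 1 and 2 (adjusted p from 0.0697 to 0.14). The step to TLSMGCL from TLSMGC was -0.55 with an adjusted p of 0.27. In TLSMG against Gastruloid the difference was -0.43 (adjusted p = 0.117), and it passed after centring (-0.57, 0.0474) and without Gastruloid replicate 1 (-0.68, 0.0164).

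Aldh1a2 and Cyp26a1 both fell after 96 h but by different amounts, so the number of Aldh1a2 TPM per Cyp26a1 TPM changed. It was 73.2, 63.7 and 52.7 in 96h. It was 7.53, 5.00 and 5.14 in Gastruloid and 5.31, 11.5 and 6.55 in TLSMG. In TLSMGC it was 67.2, 38.5 and 35.1, overlapping 96h, and in TLSMGCL 158, 125 and 132, above every other library. The divisor was low there, with Cyp26a1 at 1.51 to 1.90 TPM in TLSMGCL. From TLSMGC to TLSMGCL limma called Aldh1a2 higher but did not call Cyp26a1 (adjusted p = 0.00556 and 0.27). The ratio itself was not tested. The other Cyp26 genes were low: Cyp26b1 reached at most 2.23 TPM, in TLSMG, and Cyp26c1 was listed at 0 in all 15 libraries.

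Dhrs3 (chromosome 4, 144892827 to 144928209) reduces retinal back to retinol. It measured 3.26, 5.21 and 7.66 TPM in 96h and 11.8, 8.29 and 13.9 TPM in Gastruloid. TLSMG had 8.69, 6.33 and 9.25 TPM, TLSMGC 5.30, 2.94 and 4.24 TPM, and TLSMGCL 5.39, 4.22 and 3.63 TPM. Neighbours in the order of means all overlapped, though Gastruloid lay wholly above 96h. Dhrs3 was 2.10-fold higher in Gastruloid than in 96h (log2 0.98, SE 0.26, limma adjusted p = 0.0078). It was called lower in TLSMGC than in TLSMG (log2 -0.83, adjusted p = 0.02). That call was lost without TLSMG replicate 1 or 3 or TLSMGC replicate 2 (adjusted p from 0.0578 to 0.0838). The call of TLSMGCL below TLSMG (log2 -0.75, adjusted p = 0.03) was lost after centring (-0.57, adjusted p = 0.0898) and without TLSMG replicate 1 or 3 or TLSMGCL replicate 2 or 3 (0.0766 to 0.0994). Between TLSMG and 96h the difference was 0.56 (adjusted p = 0.0935), and 0.81 (0.0225) without 96h replicate 3.

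Stra6 (chromosome 9, 58063788 to 58153996) is the cell-surface receptor that takes up retinol. It measured 65.5, 70.1 and 69.9 TPM in 96h. Gastruloid had 41.9, 37.5 and 43.4 TPM and TLSMG 26.3, 32.7 and 40.5 TPM. TLSMGC had 313, 204 and 264 TPM and TLSMGCL 379, 330 and 361 TPM. Both groups with CHIR lay far above the rest, and Gastruloid and TLSMG overlapped below 96h. Stra6 was 7.86-fold higher in TLSMGC than in TLSMG (log2 2.94, SE 0.15, limma adjusted p = 1.11e-08), the largest rise of the 9 genes in that comparison. Against 96h it was 1.67-fold lower in Gastruloid (log2 -0.73, adjusted p = 0.00156) and 3.80-fold higher in TLSMGC (log2 1.89, adjusted p = 4.14e-07). The step to TLSMGCL from TLSMGC did not pass (log2 0.47, adjusted p = 0.176), although the groups did not overlap. In TLSMG against Gastruloid the difference was -0.31 (adjusted p = 0.113), and it passed after centring (-0.48, 0.0142) and without TLSMG replicate 3 (-0.47, 0.0298). Ccdc33 overlaps Stra6 on the other strand and was at 1.30 TPM or less.

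Crabp1 (chromosome 9, 54764748 to 54773110) binds retinoic acid in the cytoplasm. It measured 551, 458 and 467 TPM in 96h. Gastruloid had 139, 86.5 and 104 TPM and TLSMG 68.8, 103 and 69.4 TPM. TLSMGC had 363, 326 and 383 TPM and TLSMGCL 554, 683 and 603 TPM. The levels thus fell after 96 h without CHIR and were several-fold higher with it, with TLSMGCL above TLSMGC in every library. Crabp1 was 4.47-fold lower in Gastruloid than in 96h (log2 -2.17, SE 0.17, limma adjusted p = 3.3e-07) and 6.12-fold lower in TLSMG (log2 -2.62, adjusted p = 4.96e-08). It was 4.44-fold higher in TLSMGC than in TLSMG (log2 2.16, adjusted p = 6.12e-07). The rise from TLSMGC to TLSMGCL was 1.72-fold (log2 0.78, adjusted p = 0.0475), and the call was lost without any 1 of the 6 libraries (adjusted p from 0.0689 to 0.169). The same holds for TLSMGC below 96h (log2 -0.46, adjusted p = 0.0468, and 0.0587 to 0.153 with 1 library left out), which was also not called after centring (-0.47, adjusted p = 0.0536). TLSMGCL differed from 96h by 0.32 (adjusted p = 0.159, and 0.0452 with only these 2 groups in the fit). TLSMG against Gastruloid gave -0.45 (adjusted p = 0.0541), and -0.61 (0.0189) after centring. It also passed without Gastruloid replicate 2 or TLSMG replicate 2 (adjusted p = 0.0195 and 0.0106).

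Crabp2 (chromosome 3, 87948666 to 87953376) binds retinoic acid and is known to pass it to nuclear receptors. It measured 114, 180 and 213 TPM in 96h. Gastruloid had 889, 616 and 569 TPM and TLSMG 335, 535 and 439 TPM. TLSMGC had 342, 340 and 359 TPM and TLSMGCL 214, 234 and 217 TPM. Gastruloid was above every other group and 96h below, and TLSMG overlapped TLSMGC. Crabp2 was 4.08-fold higher in Gastruloid than in 96h (log2 2.04, SE 0.21, limma adjusted p = 5.56e-06), 2.58-fold in TLSMG (log2 1.38, adjusted p = 0.00016) and 2.05-fold in TLSMGC (log2 1.08, adjusted p = 0.00128). It was lower in TLSMGCL than in TLSMG (log2 -0.95, adjusted p = 0.00295). TLSMG was called lower than Gastruloid (log2 -0.66, adjusted p = 0.0266, and -0.83 after centring), but not without Gastruloid replicate 1 or TLSMG replicate 1 or 3 (adjusted p from 0.0569 to 0.124). The step from TLSMG to TLSMGC was -0.31 (adjusted p = 0.274) and that to TLSMGCL from TLSMGC -0.64 (adjusted p = 0.199). The latter passed, lower, with only those 2 groups in the fit (adjusted p = 0.0154). TLSMGCL exceeded 96h by 0.43 (adjusted p = 0.128), which passed without 96h replicate 3 (0.62, 0.0434).

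The balance of the 2 binding proteins differed between groups more than either gene. Crabp2 TPM per Crabp1 TPM was 0.207, 0.394 and 0.457 in 96h. It was 6.39, 7.13 and 5.46 in Gastruloid and 4.88, 5.20 and 6.32 in TLSMG. In TLSMGC it was 0.941, 1.04 and 0.938, and in TLSMGCL 0.387, 0.342 and 0.360, within the range of 96h. Fabp5, another protein that binds retinoic acid, was 1.63-fold higher in Gastruloid than in 96h (log2 0.70, limma adjusted p = 1.65e-06). It was higher than in 96h to a similar degree in TLSMG, TLSMGC and TLSMGCL (log2 0.55, 0.64 and 0.68, all called).

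**Figure D3:**
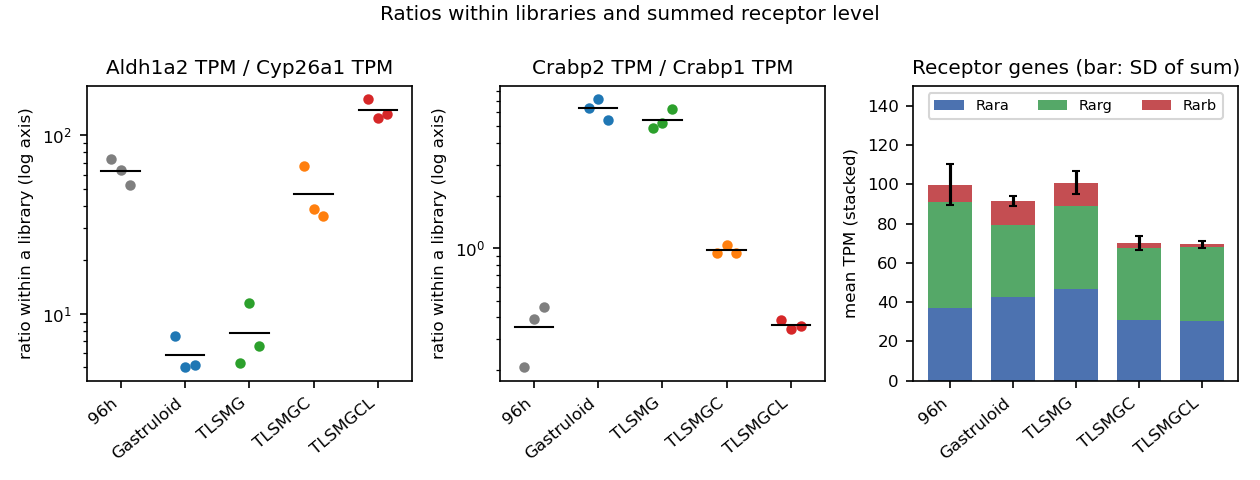
Left and middle, Aldh1a2 TPM per Cyp26a1 TPM and Crabp2 TPM per Crabp1 TPM in each library (log axes, points for libraries, line for the mean of 3) by group. Right, mean TPM of the 3 receptor genes stacked from 0, with the standard deviation of their sum; the sum is 99.7, 91.5 and 101 TPM in 96h, Gastruloid and TLSMG, and 70.1 and 69.4 TPM in TLSMGC and TLSMGCL.

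Rarb (chromosome 14, 16430839 to 16819156) is a receptor gene that retinoic acid is known to induce. It measured 11, 8.11 and 6.80 TPM in 96h. Gastruloid had 17.4, 10.7 and 8.94 TPM and TLSMG 10.3, 12.9 and 12.4 TPM. TLSMGC had 2.52, 2.96 and 1.92 TPM and TLSMGCL 1.53, 1.53 and 1.49 TPM. The groups without added CHIR overlapped each other, and every library of TLSMGC and TLSMGCL was below them. Rarb was 4.81-fold lower in TLSMGC than in TLSMG (log2 -1.90, SE 0.21, limma adjusted p = 1.05e-05) and 3.50-fold lower than in 96h (log2 -1.46, adjusted p = 8.53e-05). TLSMGCL was 5.68-fold below 96h (log2 -1.91, adjusted p = 8.2e-06), and its difference from TLSMGC was -0.45 (adjusted p = 0.379). Gastruloid and TLSMG exceeded 96h by 0.45 and 0.44 without passing (adjusted p = 0.1 and 0.102). Without 96h replicate 1 both passed (0.62 and 0.60, adjusted p = 0.0423 and 0.0402), as did Gastruloid without its replicate 3 (0.64, 0.0308). Top2b overlaps Rarb on the other strand and averaged 40.6 to 80.0 TPM by group. The libraries were stranded, but whether strand was used in the estimates is not given in the sources used here, so a part of Top2b reads in the Rarb value cannot be told apart. Like Rarb, Top2b was lower in TLSMGC and in TLSMGCL than in TLSMG (log2 -0.65 and -0.73, limma adjusted p = 0.00149 and 0.000618). It was higher in TLSMG than in 96h (0.96, adjusted p = 5.23e-05), where Rarb was not called. Against 96h, where Rarb was lower, Top2b differed by 0.31 in TLSMGC (adjusted p = 0.0745, and 0.0395 after centring) and by 0.24 in TLSMGCL (0.174). The part of Top2b in the Rarb differences was not tested.

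Rarb and Cyp26a1, the genes with the repeats printed above, were both lower in TLSMGC and TLSMGCL than in 96h. So were Aldh1a2, Rara and Rarg, whose windows held no such repeat. Of the 9 genes, 6 were lower in TLSMGC and 5 in TLSMGCL (20.1% and 22.1% of all genes). In Gastruloid against 96h the values of Rarb and Cyp26a1 went apart, with -1.30 for Cyp26a1 (called lower) and 0.45 for Rarb (not called). Against TLSMG, TLSMGC gave -0.58 for Cyp26a1 and -1.90 for Rarb.

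Rara (chromosome 11, 98927818 to 98974942) and Rarg (chromosome 15, 102234938 to 102257517) are the receptor genes with broad expression. Rara measured 37.7, 35.5 and 38.6 TPM in 96h, 42.4, 39.7 and 45.6 in Gastruloid and 42.4, 48.6 and 49.5 in TLSMG. TLSMGC had 31.5, 31.0 and 30.1 TPM and TLSMGCL 32.5, 28.1 and 31.0 TPM. The 2 groups with CHIR overlapped each other and lay below the rest. Rara was 1.52-fold lower in TLSMGC than in TLSMG (log2 -0.58, SE 0.08, limma adjusted p = 5.86e-05; -0.43 and 8.81e-05 after centring). It was 1.26-fold higher in TLSMG than in 96h (log2 0.32, adjusted p = 0.00409; 0.15 and 0.0496 after centring). Against 96h it was lower in TLSMGCL (-0.28, adjusted p = 0.0112) and TLSMGC (-0.26, 0.015), and the latter was not called without 96h replicate 3 (0.0556). Gastruloid exceeded 96h by 0.19 (adjusted p = 0.0692), which passed after centring (0.0212) and without Gastruloid replicate 2 (0.0488).

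Rarg measured 40.6, 56.4 and 64.5 TPM in 96h, 31.5, 38.5 and 39.5 in Gastruloid and 41.7, 41.3 and 43.4 in TLSMG. TLSMGC had 35.1, 33.1 and 42.0 TPM and TLSMGCL 36.2, 40.9 and 34.8 TPM. The 96h libraries spread widely and their lowest lay among the values of the other groups. Rarg was lower than in 96h in Gastruloid (log2 -0.53, SE 0.14, limma adjusted p = 0.00954) and TLSMGC (-0.52, 0.0107), the latter not without 96h replicate 3 (0.055). TLSMGCL was also called lower than 96h (-0.50, adjusted p = 0.0142), but not without 96h replicate 2 or 3 or TLSMGCL replicate 3 (0.052 to 0.0715). TLSMG was -0.32 below 96h (adjusted p = 0.0853), which passed after centring (-0.49, 0.0179) and without 96h replicate 1 (-0.51, 0.00469). No call was made for Rarg among the 120 h groups in the 4 comparisons tested, whose adjusted p ran from 0.266 to 0.967.

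Per length, Rara and Rarg carried most receptor transcripts. The 3 genes summed to 89.3 to 110 TPM in 96h, 88.9 to 94.0 in Gastruloid and 94.5 to 105 in TLSMG. TLSMGC summed to 69.1, 67.0 and 74.0 TPM and TLSMGCL to 70.3, 70.5 and 67.3 TPM, below every library of the other groups. The share of Rarb in that sum was 8.86 ± 3.12% in 96h, 13.6 ± 4.96% in Gastruloid, 11.7 ± 0.789% in TLSMG, 3.55 ± 0.917% in TLSMGC and 2.19 ± 0.0219% in TLSMGCL (SD, n = 3).

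Other genes of the pathway were counted in 3 lists. Of 13 genes of retinoid metabolism and transport, 6 were tested, among them Rdh10, described above. In Gastruloid against 96h 2 of 6 were higher and 1 lower, near the 41.2% of all genes called. In TLSMGC against TLSMG 2 of 6 were called, both higher, where 10.4% of all genes were higher. After centring 3 were, with 18.3% of all genes. Of 10 Rxr genes and coregulators, 9 were tested. Against 96h, 2 of 9 were lower and 1 higher in Gastruloid, where 20.5% and 20.8% of all genes were. In TLSMGC 5 were lower (20.1% of all genes) and in TLSMGCL 6 (22.1%). Rxra, known as the most common partner of Rar proteins, measured 27.9 to 29.1 TPM in 96h and 32.6 to 38.2 TPM in TLSMG. It measured 21.6 to 22.7 TPM with CHIR (TLSMGC) and 17.1 to 18.4 TPM with LDN (TLSMGCL). Like Rara, Rxra was lower in TLSMGC than in TLSMG (log2 -0.65, SE 0.07, limma adjusted p = 7.18e-06, and -0.49 after centring). Rxrb was above Rxra in every library, and overlapped between TLSMG (47.4 to 51.2 TPM) and TLSMGC (39.3 to 49.6 TPM). Nrip1, a corepressor that retinoic acid is known to induce, was 2.34-fold higher in TLSMG than in 96h (log2 1.17, adjusted p = 6.64e-06) and 2.22-fold lower in TLSMGC than in TLSMG (log2 -1.11, adjusted p = 1.66e-05). Rere, a coactivator of retinoic acid signalling, was 1.68-fold lower in Gastruloid than in 96h (log2 -0.74, adjusted p = 1.89e-05).

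Of 15 genes known to respond to retinoic acid, 14 were tested, and they did not move in 1 direction. In Gastruloid against 96h 4 were higher and 6 lower (20.8% and 20.5% of all genes), with a median of -0.26 where the median of all genes was 0.00. In TLSMG against 96h 7 were higher and 3 lower (33.5% and 12.5% of all genes), and 6 and 4 after centring (22.4% and 23.1%). In TLSMGC against TLSMG 9 were lower and 2 higher (30.5% and 10.4% of all genes), with a median of -0.50 against -0.16 for all genes. After centring 5 were lower and 2 higher (18.8% and 18.3%). Nr2f1, a nuclear receptor gene induced by retinoic acid, measured 0.950 to 1.56 TPM in 96h, and its range was 28.3 to 43.5 TPM in Gastruloid and 40.3 to 60.7 TPM in TLSMG. TLSMGC had 11.1 to 15.5 TPM and TLSMGCL 6.82 to 8.29 TPM. Nr2f1 was thus highest where Aldh1a2 was lowest, and lower with CHIR than in TLSMG (log2 -1.93, SE 0.19, limma adjusted p = 3.62e-06). Cdx1, a homeobox gene of the posterior body that also responds to WNT, measured 231 to 401 TPM in 96h and fell to 5.48 to 7.64 TPM in Gastruloid and 2.77 to 3.88 TPM in TLSMG. With CHIR it stood at 114 to 181 TPM (TLSMGC) and 136 to 148 TPM (TLSMGCL). Its rise from TLSMG to TLSMGC was 45.6-fold (log2 5.12, adjusted p = 6.18e-10). From TLSMGC to TLSMGCL limma called none of the 6, 9 and 14 tested genes of the 3 lists (1.18% of all genes), and at an unadjusted p under 0.05 it had 0, 2 and 1.

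**Figure D4:**
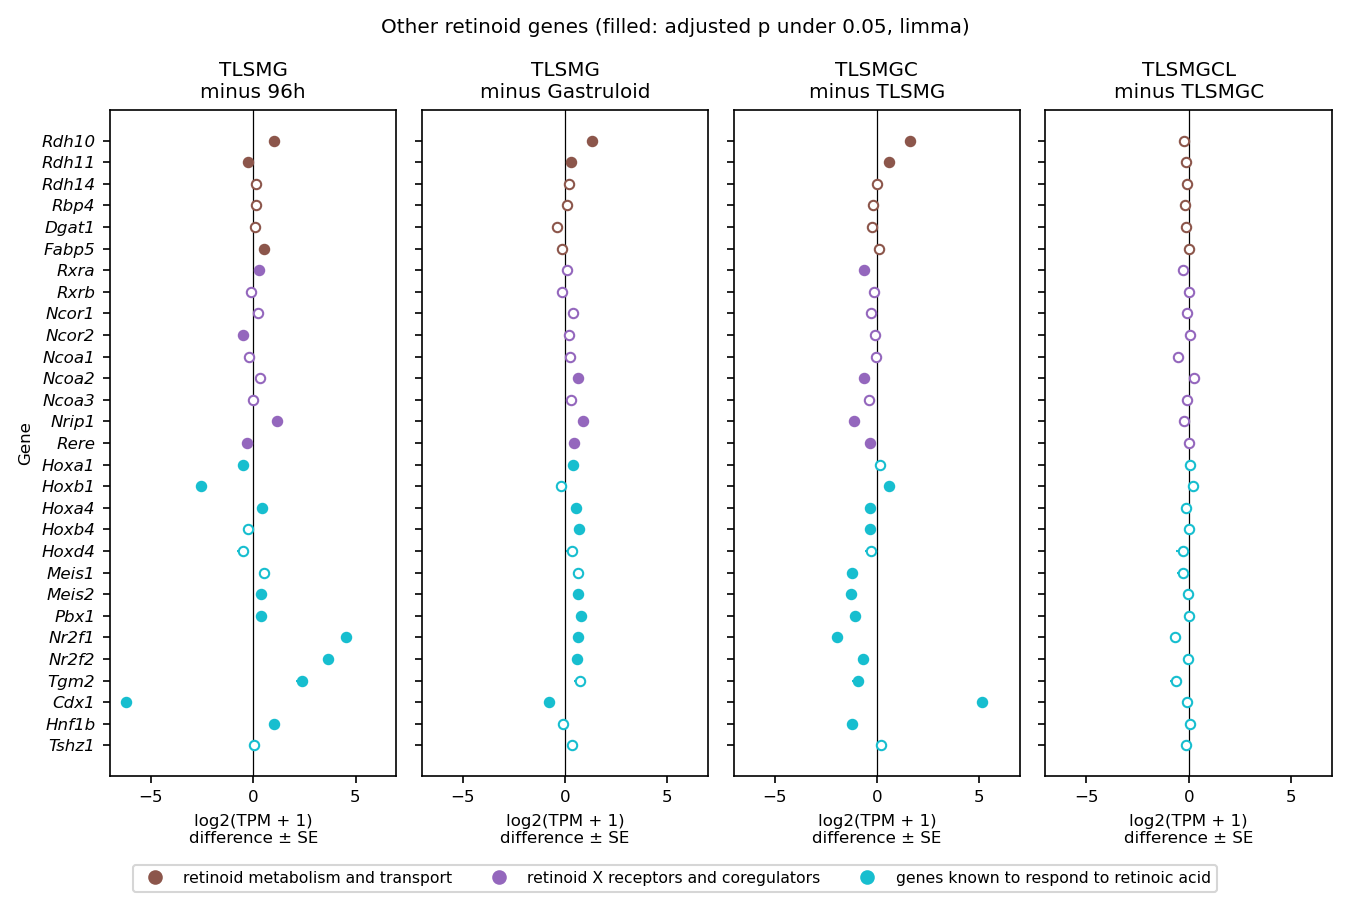
Log2(TPM + 1) difference with its standard error (horizontal axis) for the tested genes of the 3 lists (6, 9 and 14) (rows, coloured by list) in 4 comparisons (panels), filled where limma's adjusted p is under 0.05. Cdx1 reaches -6.20 in TLSMG against 96h and 5.12 in TLSMGC against TLSMG, and no gene is filled in the LDN panel.

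Markers of several cell types moved between the same groups. Which cell types express the 9 genes was not tested in these bulk pools. The 9 presomitic and tailbud markers summed to 1241 to 1753 TPM in 96h and 142 to 237 TPM in Gastruloid. They reached 206 to 257 TPM in TLSMG, and with CHIR 409 to 516 (TLSMGC) and 402 to 453 (TLSMGCL). All 9 were lower than in 96h in Gastruloid and in TLSMG (20.5% and 12.5% of all genes). In TLSMGC 6 were higher than in TLSMG (10.4% of all genes), as were Aldh1a2, Stra6 and Crabp1. Cyp26a1, Rara, Rarb and Dhrs3 were called lower there. Stra6 did not peak with these markers, with a mean of 68.5 TPM in 96h and 260 TPM in TLSMGC. From TLSMGC to TLSMGCL, where Aldh1a2 rose, 1 of the 9 markers was lower and 0 higher (0.777% and 0.406% of all genes). The 9 somite markers summed to 923 to 1214 TPM in 96h and 1034 to 1219 in Gastruloid, where Aldh1a2 was 29.1-fold lower. TLSMG had 894 to 1059 TPM of them, TLSMGC 679 to 728 TPM and TLSMGCL 758 to 887 TPM. These sums hide opposite moves of single somite markers. In Gastruloid against 96h 6 of the 9 were higher and 2 lower (20.8% and 20.5% of all genes). Mean Pax1 went from 0.036 TPM in 96h to 61.7 TPM in Gastruloid, and mean Foxc2 from 342 to 121 TPM. In TLSMGC against TLSMG, where Aldh1a2 was higher, 7 of the 9 somite markers were lower and 1 higher (30.5% and 10.4% of all genes). The 8 neural tube markers were at 65.2 to 88.2 TPM in 96h, and rose to 383 to 520 TPM in Gastruloid and 203 to 305 TPM in TLSMG. TLSMGC had 54.6 to 72.05 TPM and TLSMGCL 69.0 to 85.1 TPM. Gastruloid and TLSMG were also the highest 2 groups for mean Crabp2, but the patterns parted elsewhere. From TLSMG to TLSMGC 6 of the 7 tested neural tube markers were lower (30.5% of all genes). Crabp2 was not called there (log2 -0.31) and its libraries overlapped. It was higher in TLSMGC than in 96h (log2 1.08). Pax6, Olig2 and Neurog2 were below 1 TPM in every library of 96h, TLSMGC and TLSMGCL. Neurog2 was low elsewhere too, at 0.226 to 0.823 TPM in TLSMG and 0.504 to 1.85 TPM in Gastruloid. The 8 endothelial markers were at 8.84 to 11.97 TPM in 96h, and highest in TLSMG with 259 to 315 TPM. Gastruloid had 33.7 to 44.2, TLSMGC 24.2 to 78.9 and TLSMGCL 11.9 to 19.7 TPM. Feeder fibroblast, gut endoderm and neural crest markers each summed to at most 127 TPM in any library. The neural crest sum was 27.2 to 38.6 TPM in 96h and 112 to 127 TPM in TLSMG. In TLSMG it lay mostly in Ets1 (75.8 to 83.1 TPM) and Pax3 (28.3 to 51.1 TPM), with Sox10 and Tfap2a below 1 TPM. Foxd3 and Tfap2b reached at most 1.20 and 1.12 TPM there. The part of these shifts in the levels of the retinoic acid genes was not tested.

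The genes whose pattern was most like that of Aldh1a2 over the 15 libraries were Dll3, Mesp1, Lad1, Notch1 and Dll1, with Pearson's r of log2(TPM + 1) from 0.97 to 0.98. Dll1 and Dll3 are Notch ligands of the presomitic mesoderm, and Notch1 is their receptor. Their mean TPM in 96h, Gastruloid, TLSMG, TLSMGC and TLSMGCL was 242, 24.1, 21.8, 48.1 and 65.1 for Dll3 and 65.8, 0.518, 1.24, 5.34 and 7.91 for Mesp1. Both thus shared with Aldh1a2 the peak in 96h and the rise from TLSMGC to TLSMGCL in their means. Among the 5 most like Cyp26a1 were Poldip2, Rbpms2, Atp1b2 and Helb, with r from 0.95 to 0.97. The libraries fall into 5 groups, so these values mostly describe the group means. By rank correlation 2 of the 5 stayed among the 5 nearest for Aldh1a2 and 3 of 5 for Cyp26a1.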

How the data were processed

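RNA abundance was measured in 15 bulk libraries, 3 per group. Per the labels' protocols, mRNA libraries were prepared with a stranded kit and sequenced as 75 bp pairs to at least 23700000 fragments. Per the submitters' processing notes, cutadapt 2.4, STAR 2.7.3a and StringTie 2.0 were used. The deposited tables give TPM, per the file headers, with replicates kept apart, and rows of a gene ID were summed. The deposited FPKM values served an alternative, and the deposited coverage gave relative depth (2.52 to 5.88 per FPKM). The build is not given in the sources used here for these tables; 53492 of 54446 gene IDs had the same position in GENCODE M21, so coordinates are on GRCm38. Without counts per gene, no counting interval was computed.

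Log2(TPM + 1) was fitted with limma 3.58.1 (R 4.3.3) in 1 model of the 5 groups with a mean trend, for 14290 genes with a mean of at least 1 TPM. P-values are two-sided and Benjamini-Hochberg adjusted within each of 8 comparisons. The difference on this scale understates changes of low genes. The procedure was tested on simulated data. All 9 genes are named; from each related list at most the 2 largest differences per comparison, plus Rdh10, Aldh1a3, Cyp26b1 and Cyp26c1, and the 5 genes most correlated with Aldh1a2 and Cyp26a1 among those with a mean of at least 5 TPM. Aldh1a1, Fabp5, Rxra, Rxrb, Top2b and Ccdc33 were given where the text turned to their step or overlap. The members and lists were chosen with earlier results of these data known. Alternatives were the pseudocount, the filter, FPKM, median-of-ratios scaling, only the 2 groups compared, the replicate block, no mean trend and leaving out each library. A gene of the retinoid metabolism list is not reported here. The single-cell samples were not analysed here.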

Additional observations from a re-analysis of the deposited data

How the results depend on the processing

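Of 72 differences (9 genes in 8 comparisons), 45 were called, and 36 of these kept their call and direction under every alternative run. The 9 that did not are named above with their values, and the cause was not tested. The number of the 9 genes called in TLSMG against Gastruloid was 1, and it was 0 without the filter and 5 with FPKM or median-of-ratios scaling. In TLSMGCL against TLSMGC it was 2, and 1 without the filter, with the replicate block or without the mean trend. With only these 2 groups in the fit it was 3, 2 higher and 1 lower (Crabp2, adjusted p = 0.0154), while the genes called fell from 169 to 42 in those 6 libraries. Fits of only the 2 groups compared also ended the calls of Rarg in TLSMGCL against 96h (0.0547) and Cyp26a1 in TLSMGC against TLSMG (0.0585). With 1 library left out the counts ran from 5 to 7 in TLSMGC against 96h (8 with all), from 0 to 2 in TLSMG against Gastruloid, and stayed at 1 in TLSMGCL against TLSMGC, where all genes called ran from 56 (without TLSMGC replicate 2) to 198. Same-numbered replicates did not deviate together (30 pairs, mean r -0.02, from -0.18 to 0.10). Under the replicate block the calls of Crabp1 in TLSMGC against 96h (adjusted p = 0.0673) and in TLSMGCL against TLSMGC were lost. Differences that turned sign were none of them called. Rara in TLSMG against Gastruloid was -0.037 with FPKM and -0.034 after median-of-ratios scaling, and in TLSMGCL against TLSMGC 0.0052 and 0.0225. Rarg in TLSMGCL against TLSMG was 0.021 after that scaling. With 1 library left out, the differences that turned ran from -0.45 to 0.060 for Dhrs3 in TLSMGCL against 96h and from -0.20 to 0.25 for Rarb in TLSMG against Gastruloid. In TLSMGCL against TLSMGC they ran from -0.061 to 0.042 for Rara, from -0.045 to 0.12 for Rarg and from -0.10 to 0.24 for Dhrs3. By Spearman correlation 2 of 5 and 3 of 5 genes stayed nearest to Aldh1a2 and Cyp26a1. Counts per gene were not used, so the counting error behind low values, such as those of Cyp26a1 and Rarb with CHIR, is not known.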
